A study of Homo sapiens with 9 samples.

Results

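The 41 genes described here are cancer-testis and germline genes, a list of 10 MAGE genes, 13 other antigen genes, 9 genes of the meiotic chromosome axis and cohesin and 9 genes of the piRNA pathway and germ cell identity. They were chosen by name and matched by Ensembl identifier among the 60660 genes of the deposited count matrix, where all 41 were found. The matrix holds RNA-seq counts for 9 libraries of OVCAR3, an established cell line from a high-grade serous ovarian carcinoma. Each of the groups Control, CTCFL-OE and CTCFL-KD had 3 libraries. Control cells had received a LacZ plasmid (pCpGfree-vitroHLacZ) and CTCFL-OE cells a plasmid with the canonical *CTCFL* reading frame (pCpGfree-vitroHBORIS), both OVCAR3 cells transfected overnight with Xfect and collected after 48 h. CTCFL-KD cells were OVCAR3 cells with less *CTCFL*, by siRNA according to the series text, and their RNA came from an earlier published experiment, for which the sources used here name no LacZ plasmid. In the plasmid experiment each biological replicate pooled 3 technical replicates. Cells of the knockdown libraries thus differed in reagent and in experiment from those of the Control and the CTCFL-OE libraries. The effect of *CTCFL* and of these differences cannot be told apart in CTCFL-KD against Control, nor in CTCFL-KD against CTCFL-OE. Both comparisons with Control share the same 3 libraries.

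Cancer-testis genes are normally transcribed in germ cells of the testis and kept off in most somatic tissues, in large part by DNA methylation of promoters rich in CpG dinucleotides. Tumours often regain transcripts of a few of them, and their proteins can be seen by T cells. *CTCFL*, also called BORIS, is itself a cancer-testis gene that encodes a germ cell paralog of the chromatin factor CTCF, and genes of the MAGE and CTAG families have long been studied as genes that it might switch on. Meiotic members build the axis along which homologous chromosomes pair and recombine, and piRNA pathway members silence transposons in germ cells.

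Promoter windows are shown for 5 members that mark the range of the data: *MAGEA3*, *MAGEA6* and *MAGEA12*, whose few counts were lowest in CTCFL-KD; *PRAME*, the member with the highest level per kilobase; and *PIWIL1*, which had no count in any library. Each window runs from 250 bases before to 50 bases after a RefSeq start on GRCh38.p14, is written 5′ to 3′ along the gene, and has its CpG dinucleotides in capitals.
*MAGEA3* (chrX:152698544-152698843, plus strand) and, in the same letters, *MAGEA6* (chrX:152769640-152769939, minus strand): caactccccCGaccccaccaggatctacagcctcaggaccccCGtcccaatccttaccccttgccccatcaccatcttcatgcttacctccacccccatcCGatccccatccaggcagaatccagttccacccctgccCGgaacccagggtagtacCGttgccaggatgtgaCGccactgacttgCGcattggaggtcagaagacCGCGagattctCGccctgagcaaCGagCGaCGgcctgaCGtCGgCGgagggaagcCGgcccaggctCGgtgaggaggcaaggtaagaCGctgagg
*MAGEA12* (its second RefSeq window, chrX:152733612-152733911, plus strand): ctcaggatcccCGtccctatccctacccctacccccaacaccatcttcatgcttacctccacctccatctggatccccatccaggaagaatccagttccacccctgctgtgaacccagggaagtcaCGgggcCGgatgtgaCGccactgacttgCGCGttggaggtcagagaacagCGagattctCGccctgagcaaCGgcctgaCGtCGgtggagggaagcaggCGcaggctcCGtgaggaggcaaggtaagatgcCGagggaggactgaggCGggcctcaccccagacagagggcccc
*PRAME* (chr22:22559216-22559515, minus strand): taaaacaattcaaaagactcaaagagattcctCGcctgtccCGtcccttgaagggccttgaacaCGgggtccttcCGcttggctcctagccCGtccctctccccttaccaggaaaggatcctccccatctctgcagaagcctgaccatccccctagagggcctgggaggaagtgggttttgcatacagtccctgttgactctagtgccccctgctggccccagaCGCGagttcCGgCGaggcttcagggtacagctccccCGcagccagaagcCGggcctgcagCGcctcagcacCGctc
*PIWIL1* (chr12:130337637-130337936, plus strand): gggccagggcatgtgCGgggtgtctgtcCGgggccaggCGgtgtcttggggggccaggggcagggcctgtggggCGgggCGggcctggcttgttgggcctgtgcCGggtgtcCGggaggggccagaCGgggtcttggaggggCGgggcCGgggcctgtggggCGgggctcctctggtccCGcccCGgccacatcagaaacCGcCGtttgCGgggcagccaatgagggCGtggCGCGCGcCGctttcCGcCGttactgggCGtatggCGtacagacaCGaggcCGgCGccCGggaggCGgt

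The windows of *MAGEA3* and *MAGEA6* were identical at 300 of 300 bases, with 19 CpG dinucleotides each. The *MAGEA12* window held 15 CpG dinucleotides and matched them at 234 of 270 aligned bases (86.7%). *PRAME* had 13 CpG dinucleotides and *PIWIL1* 30. RefSeq windows were used for 30 of the 41 members. Their median, over 1 window per gene, was 18.5 CpG dinucleotides. It was 14 over 35116 promoter windows of all genes, where a gene can have several, so these sets are not matched. The median was 14 in the 15 windows on the X chromosome and 26 in the 15 windows on autosomes. It was 20 in 7 windows of members with enough counts to be tested and 17 in 15 windows of silent members, with ranges of 5 to 41 and 1 to 60 that overlapped. A core of the CTCF motif, CCNNNAGNNGGC on either strand, was found in 3 of the 30 first windows (10%), those of *PRAME*, *REC8* and *DDX53*, against 10.6% of all windows. *PRAME* held 2 such matches. The *MAGEA12* window printed above, which is not its first, held 1, as did the second windows of *DAZL* and *MAEL*. A match is a description of the letters only.

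Most of the 41 genes were silent or close to it in OVCAR3. Of them, 18 had 3 counts or fewer in every library, 10 were detected with more but had too few counts to be tested, and 13 passed edgeR's filter on low counts (filterByExpr) and were tested. Silent members were 5 of the 10 MAGE genes (*MAGEA1*, *MAGEA4*, *MAGEA10*, *MAGEA11* and *MAGEB2*), 6 of the 13 other antigen genes (*PAGE2*, *PAGE5*, *CTAG1B*, *CT83*, *DDX53* and *TKTL1*), 1 of the 9 meiotic genes (*SYCP1*) and 6 of the 9 piRNA and germ cell genes (*DAZL*, *DDX4*, *MAEL*, *PIWIL1*, *TDRD1* and *BRDT*). *MAGEA1*, *DAZL* and *PIWIL1* had no count at all. The 18 silent genes together had 44 of the 59998 counts of the 41 genes, while *PRAME* and *ATAD2* had 89.5%. On the X chromosome 11 of 19 members were silent and 2 were tested (*SSX1* and *PAGE1*). On autosomes 7 of 22 were silent and 11 were tested.

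**Figure D1:**
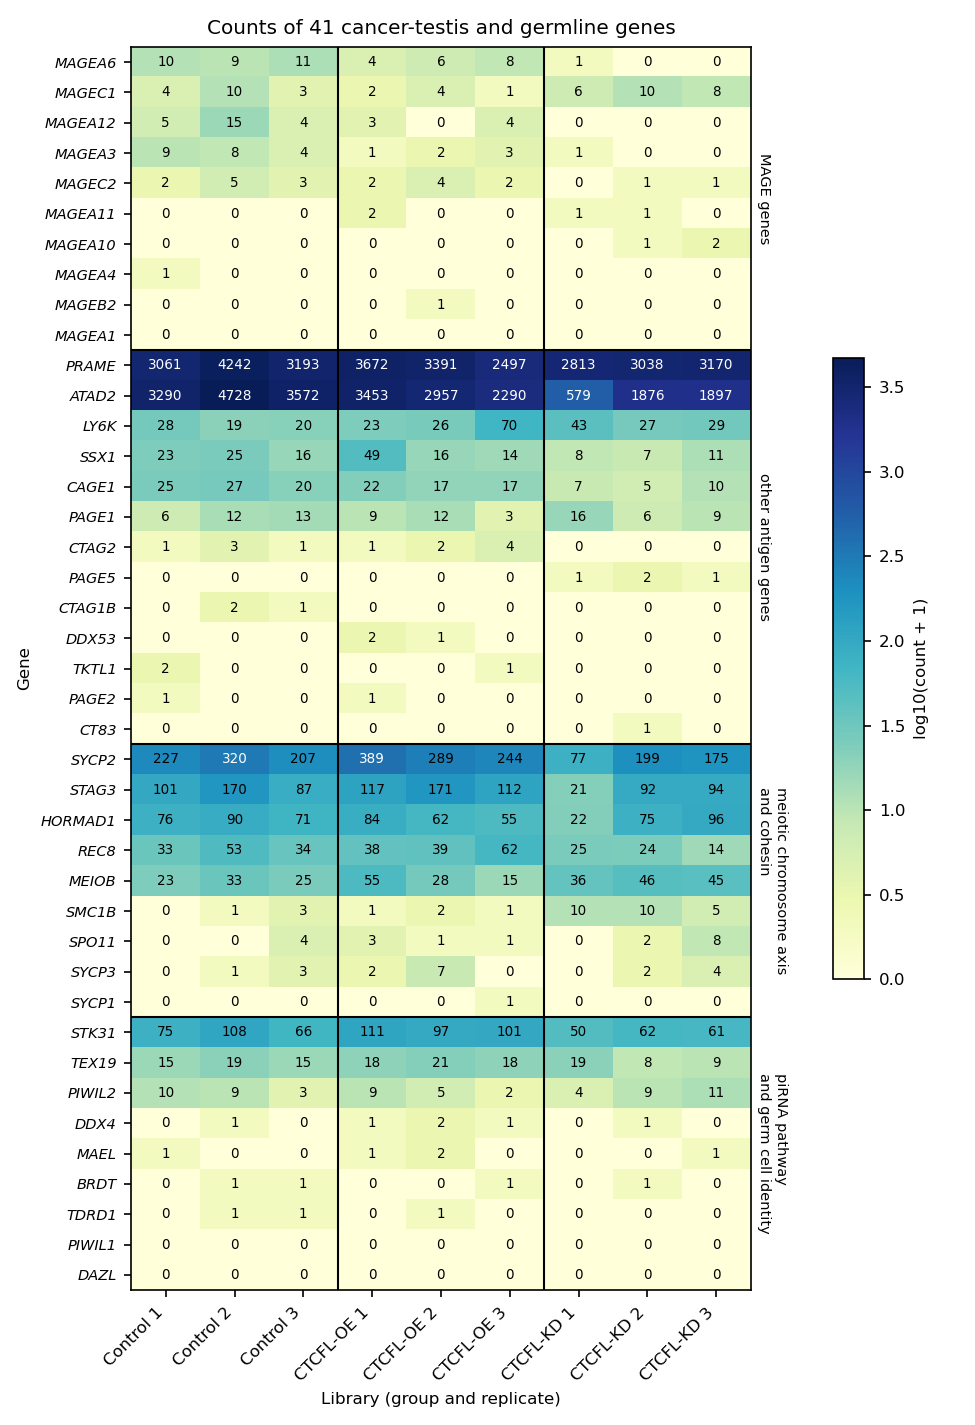
Counts of the 41 genes (rows, grouped by role) in the 9 libraries (columns), with the count printed in each cell and the colour giving log10(count + 1). *PRAME* and *ATAD2* stand far above the rest, and 18 rows hold 3 counts or fewer in every library.

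Single counts were scattered over the silent genes. *DDX53*, a DEAD-box helicase, had 2, 1 and 0 counts in CTCFL-OE and 0 in the other 6 libraries. *MAGEA11* had 2, 0 and 0 counts in CTCFL-OE cells and 1, 1 and 0 in CTCFL-KD cells. *PAGE5* had 1, 2 and 1 counts in CTCFL-KD and 0 elsewhere. Such counts are at or under the upper limit of 3 that a count of 0 allows, which corresponded to between 0.117 and 0.271 CPM (counts per 1000000 after TMM scaling), and these limits cover counting error only. No difference was detectable at this depth. *CTAG1B*, which encodes the antigen NY-ESO-1, shared all of its transcript (100% of its 75-base windows) with *CTAG1A* or *CTAG2*, so that its count depends on how the authors treated reads that align to several places.

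Total counts lay between 14332622 and 24490080 per library, and mitochondrial genes took 6.16% to 6.52% of them in Control, 7.40% to 14.9% after overexpression and 7.80% to 11.8% after knockdown. CTCFL-KD replicate 1 stood apart, with the fewest counts, a TMM factor of 0.775 (0.945 to 1.09 in the others) and a correlation of its deviation with gene length of -0.407 (Spearman, across 11973 genes; -0.015 to 0.208 in the others). For tested members and several other genes, values without it are given beside the CTCFL-KD result. *CTCFL* had 6, 9 and 10 counts in Control, 36, 34 and 72 in CTCFL-OE, where reads of the gene and of the plasmid cannot be told apart, and 0, 1 and 0 in CTCFL-KD. Of 12 OVCAR3 carcinoma markers (*PAX8*, *WT1*, *MUC16*, *MSLN*, *EPCAM*, *KRT7*, *KRT8*, *KRT18*, *CDH1*, *CLDN3*, *CLDN4* and *FOLR1*) all 12 were tested and present. Their summed level was 5517 to 5623 CPM in Control, 5132 to 5265 in CTCFL-OE cells and 9913 to 16449 in CTCFL-KD cells. By the test described below, 8 rose and 1 (*KRT7*) fell in CTCFL-KD, beside 23.2% of all tested genes called in either direction. The 15 fibroblast and stromal markers summed to 112 to 122 CPM in Control, 103 to 219 after overexpression and 160 to 273 after knockdown. Among them *COL1A2* had 156, 239 and 247 counts in CTCFL-KD and 0 in every Control library, *POSTN* and *TWIST1* also rose, *FBLN1* had 147 CPM in CTCFL-KD and 79.2 in Control (adjusted p 0.0521 from edgeR), *COL1A1* (means of 23.3 and 29.8 CPM) and *TAGLN* (1.46 and 2.10 CPM) were in every CTCFL-KD library under every Control library without passing the test, *COL3A1* had 8, 9 and 8 counts, and *DCN* and *COL5A1* were at or near 0. The part of these differences in the results below was not tested. In bulk RNA, fewer cells that express a gene and less RNA per cell cannot be told apart.

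Levels of the 13 tested members spanned a wide range per kilobase of exon. In Control, *PRAME* stood at 42.0 ± 1.57 CPM per kilobase (SD, n = 3) and *ATAD2* at 24.9 ± 1.44. *PRAME* encodes a receptor subunit of a cullin-2 ubiquitin ligase and *ATAD2* a bromodomain ATPase of dividing cells. *SYCP2*, a protein of the lateral element of the synaptonemal complex, followed at 1.77 ± 0.151 and *HORMAD1*, a HORMA domain protein of the unpaired axis, at 1.51 ± 0.0655. The lowest 3 were *TEX19* at 0.387 ± 0.00558, *CAGE1* at 0.315 ± 0.0367 and *LY6K* at 0.260 ± 0.0824 CPM per kilobase. *STAG3* (0.717 to 1.08), *SSX1* (0.663 to 0.942) and *PAGE1* (0.456 to 0.999 CPM per kilobase) overlapped in their Control libraries, so their order does not exceed the spread. The same held for *MEIOB* (0.575 to 0.640) and *STK31* (0.544 to 0.683).

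**Figure D2:**
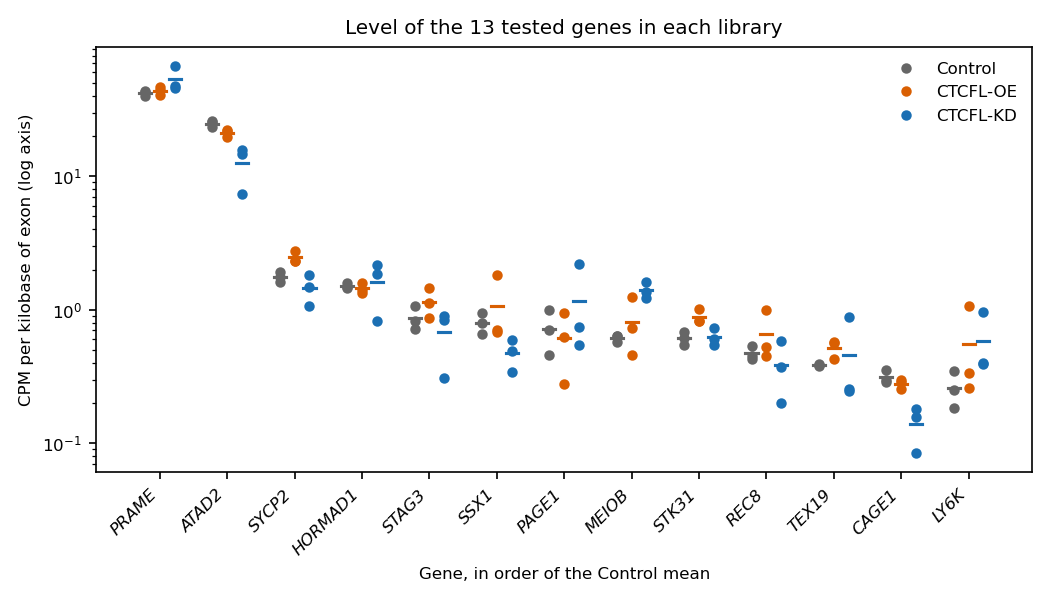
CPM per kilobase of exon (log axis) of the 13 tested genes in each library, coloured by group, with a short line at each group mean of 3 libraries. *PRAME* and *ATAD2* lie above 7 CPM per kilobase in every library and the other 11 genes below 3.

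None of the 13 tested members was a DEG in CTCFL-OE, where a DEG (differentially expressed gene) had to change by more than 1 on the log2 scale, up or down, with an adjusted p below 0.1 (edgeR quasi-likelihood test, Benjamini-Hochberg over the 17794 tested genes). Of all tested genes, 2.07% were DEGs. Log2 fold changes of the members ran from -0.23 (*ATAD2*) to 1.07 (*LY6K*), with adjusted p between 0.219 and 0.936. An unadjusted p under 0.05 was reached by 2 members, *STK31* and *SYCP2*. DESeq2 on all 9 libraries also called 0, beside 3.02% of genes, and edgeR without the filter on low counts called 1, *LY6K*, among 38 members that then entered, beside 2.18% of 37834 genes. In 4 of 13 members (*SYCP2*, *STK31* and *TEX19* above, *ATAD2* below) the 3 CTCFL-OE libraries did not overlap the Control libraries, against 37.1% of all tested genes. The median log2 fold change was 0.42 for the members and -0.01 for all genes tested.

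*SYCP2* had 11.4, 12.4 and 10.5 CPM in Control, 17.7, 15.1 and 15.0 in CTCFL-OE cells and 6.94, 11.8 and 9.59 in CTCFL-KD cells. The 3 CTCFL-OE libraries were the highest. After overexpression the log2 fold change of *SYCP2* was 0.48 ± 0.20 (SE), with an adjusted p of 0.254 from edgeR, which was 0.0373 in the fit without CTCFL-KD replicate 1. In CTCFL-KD the log2 fold change was -0.27, and -0.094 without that library. *STK31*, a Tudor domain kinase of male germ cells, had 3.76, 4.20 and 3.34 CPM in Control, 5.06, 5.07 and 6.21 after overexpression and 4.51, 3.69 and 3.34 after knockdown. Its CTCFL-OE libraries also lay above all others, with a log2 fold change of 0.53 ± 0.21 (SE) and an adjusted p of 0.219 from edgeR. Both changes stayed under the fold threshold. *LY6K*, a surface protein of sperm, reached 4.30 CPM in CTCFL-OE replicate 3 and 1.05 and 1.36 in replicates 1 and 2, beside 1.40, 0.738 and 1.01 in Control. A single library thus carried its fold change.

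The MAGE genes, which encode partners of RING ubiquitin ligases, had too few counts for the filter in every case. Of the 10, 5 were detected. *MAGEA3* had 9, 8 and 4 counts in Control, 1, 2 and 3 in CTCFL-OE cells and 1, 0 and 0 in CTCFL-KD cells. *MAGEA6* had 10, 9 and 11 counts in Control, 4, 6 and 8 after overexpression and 1, 0 and 0 after knockdown. *MAGEA12* had 5, 15 and 4 counts in Control, 3, 0 and 4 in CTCFL-OE cells and none in CTCFL-KD cells. For each of these 3 genes every CTCFL-KD library lay under every Control library. Of all tested genes, 56.3% did not overlap between these groups, in either direction. They are neighbours on the X chromosome (chrX:152698767-152702347, chrX:152733757-152737669 and chrX:152766136-152769716 for *MAGEA3*, *MAGEA12* and *MAGEA6* on GRCh38).

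The ratios of summed counts, scaled by library size and with exact 95% intervals for counting error, give the size of these differences. Against CTCFL-KD, Control was 14.8-fold higher for *MAGEA3* (2.38 to 613, from 21 and 1 counts) and 21.2-fold higher for *MAGEA6* (3.52 to 863, from 30 and 1 counts). *MAGEA12*, with 24 counts in Control and 0 in CTCFL-KD, was at least 5.64-fold lower in CTCFL-KD, taking 3 counts over the group as the upper limit. Against CTCFL-OE, Control was 3.07-fold higher for *MAGEA3* (1.20 to 9.29), 1.46-fold for *MAGEA6* (0.788 to 2.78) and 3.0-fold for *MAGEA12* (1.26 to 8.26). Of their 75-base windows, 44.5% for *MAGEA3* and 44.3% for *MAGEA6* occur in another gene, chiefly in each other and in *MAGEA2* and *MAGEA2B*, so how reads were split among these 4 genes is uncertain. The summed counts of *MAGEA3* and *MAGEA6* alone were 19, 17 and 15 in Control, 5, 8 and 11 after overexpression and 2, 0 and 0 after knockdown. CTCFL-KD replicate 1 held both of these CTCFL-KD counts. *MAGEA12* shared only 0.175% of its windows with *MAGEA3*.

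In edgeR's fit without the filter, *MAGEA3* (adjusted p 0.00614), *MAGEA6* (adjusted p 0.000221) and *MAGEA12* (adjusted p 0.000257) were lower in CTCFL-KD and passed the DEG threshold, where 13.6% of the 37834 genes did. In CTCFL-OE their adjusted p in that fit were 0.386, 0.702 and 0.366. DESeq2 on all 9 libraries called the same 3 genes in CTCFL-KD, where 18.9% of genes with an adjusted p were called. *MAGEC1* had 4, 10 and 3 counts in Control, 2, 4 and 1 in CTCFL-OE cells and 6, 10 and 8 in CTCFL-KD cells, where it was 2.00 times its Control level (1.03 to 3.97, counting error only) with an adjusted p of 0.306 in the fit without the filter. *MAGEC2*, a partner of the ligase TRIM28, had 2, 5 and 3 counts in Control, 2, 4 and 2 after overexpression and 0, 1 and 1 after knockdown. Control was 3.53-fold higher than CTCFL-KD for *MAGEC2*, with an interval of 0.752 to 33.1 that includes 1.

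**Figure D3:**
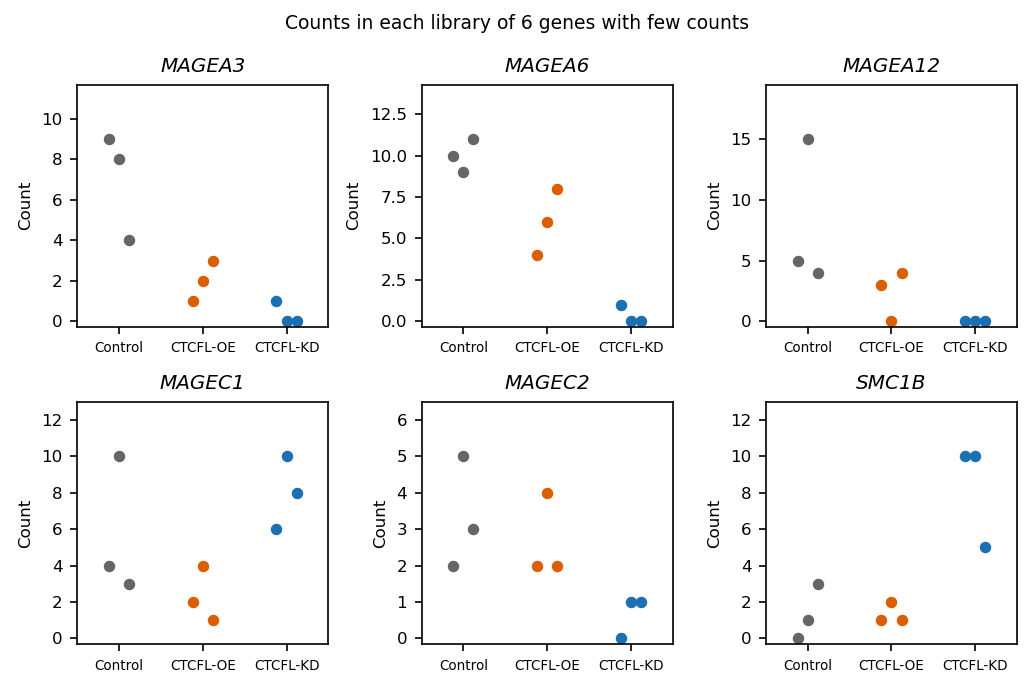
Counts in each library (points, from 0) for 6 genes with too few counts to pass the filter, by group. *MAGEA3*, *MAGEA6* and *MAGEA12* have at most 1 count in any CTCFL-KD library and *MAGEC1* has 6 to 10, while *SMC1B* has 5 to 10 counts there and at most 3 elsewhere.

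Knockdown cells differed from Control cells in 2 of the 13 tested members (15.4%), at an adjusted p under 0.05 and beyond the same fold, beside 23.2% of all genes tested. *CAGE1* fell and *MEIOB* rose. An unadjusted p under 0.05 was reached by 3 members, the third being *ATAD2*. In 6 of 13 members the CTCFL-KD libraries did not overlap the Control libraries, 3 above and 3 below, against 56.3% of all genes. The median log2 fold change was 0.02 for the members and 0.08 for all genes tested. Without the filter 8 of the 38 members that then entered were DEGs, beside 13.6% of all genes (*CAGE1*, *ATAD2*, *MAGEA3*, *MAGEA6* and *MAGEA12* lower, *MEIOB*, *LY6K* and *SMC1B* higher), and DESeq2 on all 9 libraries called the same ones except *LY6K*, beside 18.9% of genes with an adjusted p. DESeq2 on the groups compared called 6 members, beside 18.2% of genes with an adjusted p.

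*CAGE1* (chr6:7326656-7389742, minus strand), a testis gene first found as a tumour antigen, had 1.25, 1.05 and 1.01 CPM in Control, 1.0, 0.888 and 1.04 in CTCFL-OE cells and 0.631, 0.297 and 0.548 in CTCFL-KD cells. All 3 CTCFL-KD libraries were under the other 6. The log2 fold change in CTCFL-KD was -1.19 ± 0.33 (SE), with an adjusted p of 0.0164 from edgeR, and -1.35 with an adjusted p of 0.00848 without CTCFL-KD replicate 1. *CAGE1* was no longer a DEG without Control replicate 1 (adjusted p 0.0636), without CTCFL-KD replicate 2 (adjusted p 0.0718) or by DESeq2 on the groups compared (adjusted p 0.0515). Its counts were 25, 27 and 20 in Control and 7, 5 and 10 in CTCFL-KD. On the same strand its annotated exons share 69 bases (1.97%) with *SSR1*, which had 1700 to 3293 counts per library.

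*MEIOB* (chr16:1833986-1872178, minus strand), a single-strand DNA binding protein of meiotic recombination, had 1.15, 1.28 and 1.27 CPM in Control, 2.51, 1.46 and 0.922 after overexpression and 3.25, 2.74 and 2.46 after knockdown. Every CTCFL-KD library was above every Control library, while the CTCFL-OE libraries overlapped both groups. The log2 fold change in CTCFL-KD was 1.17 ± 0.33 (SE), with an adjusted p of 0.0174 from edgeR, and 1.07 with an adjusted p of 0.0244 without CTCFL-KD replicate 1. Without any single Control library the adjusted p lay between 0.0558 and 0.0648. The annotation places 77.7% of its exon bases within ENSG00000289722 on the same strand, a gene model that was not used here. It also shares 177 exon bases with *FAHD1* on the opposite strand, which had 1371, 1662 and 1265 counts in Control and 735, 558 and 623 in CTCFL-KD. The strand setting of the counting is not given in the sources used here.

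**Figure D4:**
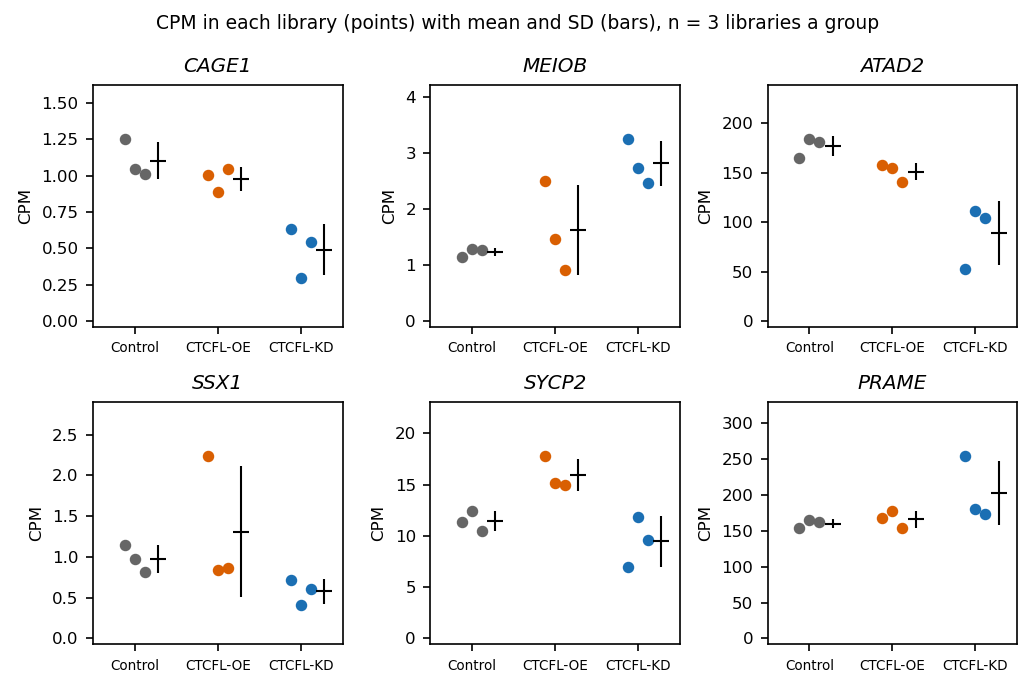
CPM (counts per 1000000 after TMM scaling, axis from 0) of 6 members in each library (points), with the mean and SD of 3 libraries per group (bars). *CAGE1* and *ATAD2* are lower in every CTCFL-KD library than in any other, and *MEIOB* is higher in every CTCFL-KD library than in any Control library.

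*ATAD2* had 165, 184 and 181 CPM in Control, 157, 155 and 141 in CTCFL-OE cells and 52.2, 112 and 104 in CTCFL-KD cells. The 3 CTCFL-KD libraries were the lowest and the CTCFL-OE libraries lay between. Its log2 fold change in CTCFL-KD was -0.98 ± 0.25 (SE), with an adjusted p of 0.0114 from edgeR, just short of the fold threshold. With the replicate number as a block it was -1.02 (adjusted p 0.00993) and passed, as did 22.6% of all genes in that fit. Without CTCFL-KD replicate 1, which had the lowest value, it was -0.71, with an adjusted p of 0.000609.

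The highest member, *PRAME* (chr22:22547701-22559361, minus strand), had 153, 165 and 162 CPM in Control, 167, 177 and 153 after overexpression and 254, 181 and 174 after knockdown. Every CTCFL-KD library was above the Control libraries, with a log2 fold change of 0.34 ± 0.19 (SE) and an adjusted p of 0.174 from edgeR. Without CTCFL-KD replicate 1 the log2 fold change was 0.15, with an adjusted p of 0.275. In CTCFL-OE it was 0.05 ± 0.19, with an adjusted p of 0.903.

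*SSX1*, a nuclear repressor known from the *SS18* fusions of synovial sarcoma, had 1.15, 0.971 and 0.810 CPM in Control, 2.23, 0.836 and 0.860 in CTCFL-OE cells and 0.722, 0.416 and 0.603 in CTCFL-KD cells. Its CTCFL-KD libraries were the lowest of all, with a log2 fold change against Control of -0.78 ± 0.46 (SE) and an adjusted p of 0.207 from edgeR, and of -0.92 without CTCFL-KD replicate 1. In CTCFL-OE only replicate 1 was high, and without it the log2 fold change turned from 0.45 to -0.21. *PAGE1*, of the GAGE family, had 0.301, 0.466 and 0.658 CPM in Control, 0.410, 0.627 and 0.184 after overexpression and 1.44, 0.357 and 0.493 after knockdown, and its groups overlapped. Its log2 fold change in CTCFL-KD was 0.57, and -0.15 without CTCFL-KD replicate 1. *LY6K* had 3.88, 1.61 and 1.59 CPM in CTCFL-KD, all above Control, with a log2 fold change of 1.13 ± 0.57 (SE) and an adjusted p of 0.140 from edgeR. Without CTCFL-KD replicate 1 that log2 fold change was 0.63. *LNCOC1* covers 80.8% of the *LY6K* exon bases on the opposite strand and had 1 to 8 counts per library. *CTAG2*, a relative of *CTAG1B*, had 1, 3 and 1 counts in Control, 1, 2 and 4 in CTCFL-OE and 0 in each CTCFL-KD library.

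Of the meiotic axis members 5 of 9 were tested. *STAG3* and *REC8* are cohesin subunits that replace mitotic ones in germ cells. *STAG3* had 5.06, 6.61 and 4.41 CPM in Control, 5.34, 8.94 and 6.88 in CTCFL-OE cells and 1.89, 5.47 and 5.15 in CTCFL-KD cells, where only replicate 1 was low. *REC8* had 1.65, 2.06 and 1.72 CPM in Control, 1.73, 2.04 and 3.81 after overexpression and 2.25, 1.43 and 0.767 after knockdown. *HORMAD1* had 3.81, 3.50 and 3.60 CPM in Control, 3.83, 3.24 and 3.38 in CTCFL-OE cells and 1.98, 4.46 and 5.26 in CTCFL-KD cells. In these 3 genes the groups overlapped, with adjusted p in CTCFL-KD of 0.473 for *STAG3*, 0.529 for *REC8* and 0.756 for *HORMAD1* from edgeR. Leaving out CTCFL-KD replicate 1, the log2 fold changes went from -0.34 to -0.018 for *STAG3*, from -0.35 to -0.74 for *REC8* and from 0.13 to 0.43 for *HORMAD1*. *STAG3* shares 20.8% of its exon bases with *CASTOR3P* on the opposite strand, which had 149 to 594 counts per library.

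*SMC1B* (chr22:45344063-45413619, minus strand), the meiotic form of a cohesin ring subunit, was the meiotic member that differed most in few counts. It had 0, 1 and 3 counts in Control, 1, 2 and 1 after overexpression and 10, 10 and 5 after knockdown. The ratio of CTCFL-KD to Control was 8.86 (exact 95% interval 3.06 to 35.0, counting error only) and that of CTCFL-KD to CTCFL-OE 7.76 (2.68 to 30.7). In the fit without the filter its adjusted p was 0.000979 against Control and 0.00312 against CTCFL-OE. *SPO11*, which makes the breaks that start meiotic recombination, had 0, 0 and 4 counts in Control, 3, 1 and 1 in CTCFL-OE cells and 0, 2 and 8 in CTCFL-KD cells. *SYCP3*, the partner of *SYCP2*, has 14.8% of its exon bases within *CHPT1* on the opposite strand and had 0, 1 and 3 counts in Control, 2, 7 and 0 after overexpression and 0, 2 and 4 after knockdown. Both overlapped between groups.

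Of the piRNA pathway and germ cell identity genes, 3 of 9 had more than 3 counts in a library. *PIWIL2*, a PIWI protein that binds piRNAs, had 10, 9 and 3 counts in Control, 9, 5 and 2 in CTCFL-OE cells and 4, 9 and 11 in CTCFL-KD cells. *TEX19*, a germ cell protein that acts against retrotransposons, had 0.751, 0.738 and 0.760 CPM in Control, 0.821, 1.10 and 1.11 after overexpression and 1.71, 0.476 and 0.493 after knockdown. Its CTCFL-OE libraries were above Control with a log2 fold change of 0.42 ± 0.44 (SE), and its adjusted p were 0.646 in CTCFL-OE cells and 0.830 in CTCFL-KD cells from edgeR. *STK31*, given above, had a log2 fold change of 0.02 ± 0.21 in CTCFL-KD. In the absence of CTCFL-KD replicate 1 that of *STK31* was -0.10 and that of *TEX19* -0.62, in place of 0.14.

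CTCFL-KD and CTCFL-OE, set directly against each other, also came from different experiments with different reagents. They differed in 1 of 13 tested members past an adjusted p of 0.05 and the fold threshold, beside 17.0% of all genes tested. This was *CAGE1*, lower in CTCFL-KD by a log2 fold change of -1.01 ± 0.34 (SE, adjusted p 0.0478 from edgeR). With the replicate number as a block its adjusted p was 0.0676 and no member was called, beside 16.7% of all genes. Without CTCFL-KD replicate 1, 3 members were lower (*CAGE1*, *REC8* and *TEX19*), beside 16.9% of all genes called in that fit. Without any other single library *CAGE1* was not called. *SYCP2* (log2 fold change -0.75 ± 0.21, adjusted p 0.0221) and *ATAD2* (-0.76 ± 0.25, adjusted p 0.0473) passed the p threshold but not the fold, and 26.8% of all genes passed that p threshold. *CAGE1* was not called by DESeq2 on all 9 libraries (adjusted p 0.106), which called 2 members (*MAGEA6* lower, *SMC1B* higher) beside 14.2% of genes. Nor was it called by edgeR without the filter (adjusted p 0.0905), where 4 members were (*MAGEA6* and *SSX1* lower, *MAGEC1* and *SMC1B* higher) beside 10.4% of genes. In 5 of 13 members all CTCFL-KD libraries were under the CTCFL-OE libraries and in none above, while 39.8% of all tested genes did not overlap. These were *SSX1*, *SYCP2*, *STK31*, *ATAD2* and *CAGE1*. The median log2 fold change was -0.51 for the members and 0.04 for all genes.

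**Figure D5:**
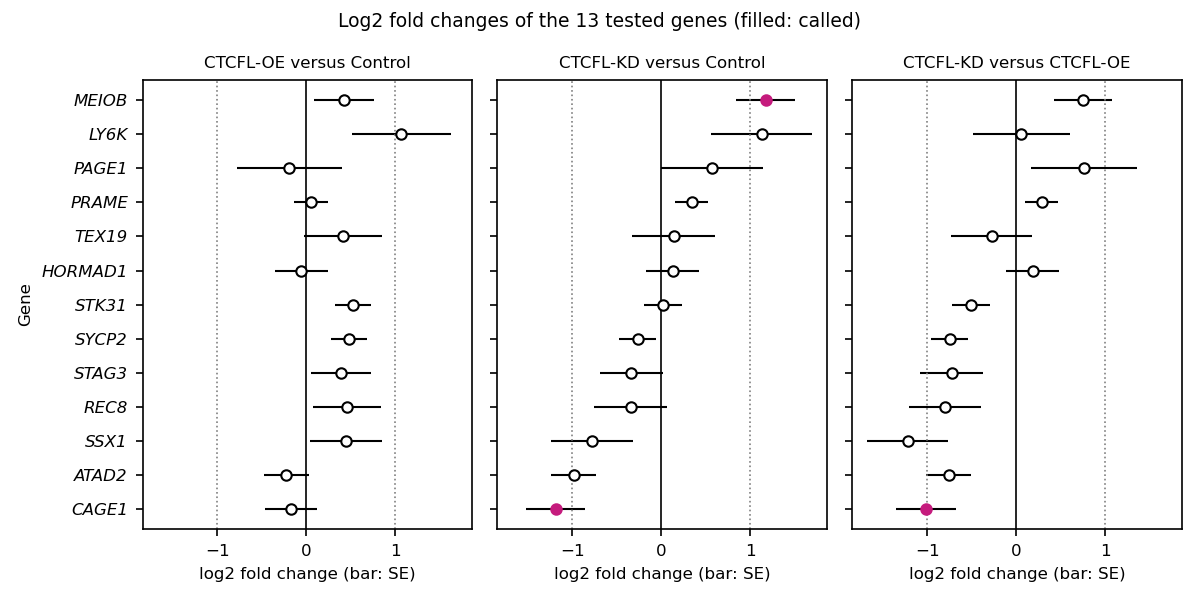
Log2 fold changes with their standard errors (bars) of the 13 tested genes in the 3 comparisons, in the order of CTCFL-KD versus Control, with DEGs filled and dotted lines at a log2 fold change of 1 in either direction. *CAGE1* and *MEIOB* are filled in CTCFL-KD versus Control, *CAGE1* in CTCFL-KD versus CTCFL-OE and no gene in CTCFL-OE versus Control.

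Further genes of the same kinds were read from 4 lists with 157 entries, of which 56 were tested. In CTCFL-OE 1 of these 56 was a DEG, beside 2.07% of all genes. It was *CTCFL* itself (log2 fold change 2.73 ± 0.48 (SE), adjusted p 0.0287 from edgeR), which was no longer a DEG without Control replicate 1, 2 or 3 (adjusted p 0.169, 0.176 and 0.125). In CTCFL-KD 17 were, 8 higher and 9 lower, beside 23.2% of all genes, and between CTCFL-KD and CTCFL-OE 16 were, 5 higher and 11 lower, beside 17.0% of all genes. Of 62 other X-linked cancer-testis genes, 41 were silent and 11 were tested, and 6 of those were DEGs in CTCFL-KD, 2 higher and 4 lower, beside 25.9% of tested genes on the X chromosome. The 11 include the near-identical pairs *SSX2* and *SSX2B*, *SSX4* and *SSX4B*, and *XAGE1A* and *XAGE1B*, and *SSX2* and *SSX2B* are 2 of the 4 lower ones. *SSX2* had 879, 1167 and 902 counts in Control, 1632, 1462 and 1009 after overexpression and 269, 293 and 280 after knockdown. It fell by 1.25 on the log2 scale in CTCFL-KD (SE 0.20, adjusted p 0.000738 from edgeR). Its copy *SSX2B*, with the same transcript windows, differed from it by at most 33 counts in a library. In CTCFL-OE every *SSX2* library was above Control, with a log2 fold change of 0.66 ± 0.19 (SE) and an adjusted p of 0.126 from edgeR. *XAGE2* had 328, 387 and 257 counts in Control, 630, 351 and 222 in CTCFL-OE cells and 31, 15 and 17 after knockdown, a log2 fold change of -3.35 ± 0.42 (SE). *GAGE2A* (10, 8 and 10 counts in Control and 32, 20 and 23 in CTCFL-KD) and *NXF2* (6, 9 and 2 in Control and 25, 26 and 27 in CTCFL-KD) rose. Both passed the filter only with their CTCFL-KD libraries, the group where they were high, so their calls were not independent of the filter. Log2 fold changes against Control without CTCFL-KD replicate 1 were -1.46 for *SSX2* and -4.01 for *XAGE2*. Against CTCFL-OE, *SSX7* (log2 fold change -3.10), *SSX2*, *SSX2B* and *XAGE2* were lower in CTCFL-KD and *GAGE2A* was higher.

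Counts of *MAGEA2* and *MAGEA2B*, which share all of their transcript windows, were equal in 9 of 9 libraries, as were those of *XAGE1A* and *XAGE1B*. *MAGEA2* had 2, 7 and 4 counts in Control, 3, 1 and 6 in CTCFL-OE and 0 in every CTCFL-KD library. It has windows in common with *MAGEA3* and *MAGEA6*, so its counts are not independent of theirs, and it is named here after its values were seen.

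The other meiotic list had 36 genes, 14 tested and 2 DEGs in CTCFL-KD, beside 23.2% of all tested genes. *HFM1*, a meiotic helicase, rose by a log2 fold change of 1.41 ± 0.36 (SE; 1.43 without CTCFL-KD replicate 1), and *MEIOC*, which keeps germ cells in meiotic prophase, fell by 1.25 on the log2 scale (SE 0.38). Without CTCFL-KD replicate 1 the change of *MEIOC* was -0.88 and under the fold threshold, and it was not called without any single Control library (adjusted p 0.0529 to 0.0730), by edgeR on the groups compared (adjusted p 0.0632) or with length and GC offsets (-0.996). Of 20 other piRNA and germ granule genes 10 were tested and 3 were DEGs in CTCFL-KD, beside the same 23.2%. *PLD6*, a mitochondrial nuclease of piRNA processing, had 83, 90 and 61 counts in Control and 131, 170 and 181 in CTCFL-KD (log2 fold change 1.56 ± 0.24), *TDRD5* rose (1.26 ± 0.30) and *SPOCD1* fell (-1.70 ± 0.42). *MYBL1*, a transcription factor of pachytene piRNA clusters, was lower in CTCFL-KD than in CTCFL-OE (-1.34 ± 0.26). Of 39 other germ cell genes 21 were tested and 6 were DEGs in CTCFL-KD, 3 higher and 3 lower, again beside 23.2%. *PLAC1*, an antigen of placenta and tumours, had 23, 51 and 32 counts in Control, 56, 70 and 60 after overexpression and 131, 89 and 104 after knockdown, a log2 fold change of 2.23 ± 0.35 in CTCFL-KD and of 1.78 without CTCFL-KD replicate 1. *NANOS1*, an RNA-binding protein of germ cells, rose (1.18 ± 0.21), but was just under the fold threshold with length and GC offsets (0.998). *CTCFL*, *TTK* and *CEP55* fell, though *CTCFL* was not a DEG without CTCFL-KD replicate 3 (adjusted p 0.0551 from edgeR). *TTK* (-1.25 ± 0.17) and *CEP55* (-1.62 ± 0.21) also serve the mitosis of any dividing cell.

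Somatic relatives of the members were all well expressed. Of 10 (*SMC1A*, *SMC3*, *RAD21*, *STAG1*, *STAG2*, *BRD2*, *BRD3*, *ATAD2B*, *DDX3X* and *TKT*) none was a DEG in CTCFL-OE, beside 2.07% of all tested genes. Log2 fold changes there ran from -0.47 (*DDX3X*) to -0.02 (*BRD2*). In CTCFL-KD, where 23.2% of all tested genes were DEGs, 2 fell, *SMC3* (-1.10 ± 0.23, adjusted p 0.00388) and *DDX3X* (-1.07 ± 0.28, adjusted p 0.0126). Both were under the fold threshold without CTCFL-KD replicate 1 (-0.87 and -0.77) and with length and GC offsets (-0.87 and -0.91). *STAG2* (-0.89 ± 0.27, adjusted p 0.0218) passed the p threshold only. *SMC1A*, the mitotic counterpart of *SMC1B*, had a log2 fold change of 0.33 ± 0.24 and an adjusted p of 0.301 from edgeR, and of 0.55 and 0.00864 without CTCFL-KD replicate 1.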

How the data were processed

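RNA-seq counts of 3 Control, 3 CTCFL-OE and 3 CTCFL-KD libraries were analysed. Per the study's methods and the labels, the authors trimmed paired reads of stranded mRNA libraries (Trimmomatic), aligned them by STAR to GRCh38 and ran featureCounts, and the deposited values are these raw counts per gene. The submitters' processing notes also name kallisto. The annotation release, whether strand was used and how multi-mapping reads were handled are not given in the sources used here, and the last affects near-identical genes. The matrix and the 9 single-library tables agreed value for value (9 of 9).

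Genes were named by GENCODE release 44 on GRCh38 (60419 of 60660 identifiers). Counts were fitted with edgeR 4.0.16 in R 4.3.3 (filterByExpr, TMM, robust quasi-likelihood fit to all 9 libraries, tested on simulated data), with Benjamini-Hochberg adjustment over 17794 genes. DEG thresholds follow the study's methods. DESeq2 1.42.0, other scalings and filters, length and GC offsets, a replicate block and fits without each library were alternatives. Tables, exact intervals and figures used Python 3.11.15 with scipy 1.17.1 and matplotlib 3.10.9, and alignments Biopython 1.88. Promoter windows came from RefSeq on GRCh38.p14 and were used for 30 of 41 members. Those of members on chromosome 8 (*ATAD2*, *LY6K* and *PIWIL2*) were left out.

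All 41 members are named. Values in every library are given for members called in any comparison and for the 10 tested members highest in Control per kilobase, and other members follow by role. In each further list the called genes with the largest change are named, up to 4 per direction and with at least 1 CPM in a group. The members and lists were chosen with earlier results of these data known. 1 gene of the other meiotic list was not matched by name, and 1 somatic relative is not reported here.

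Same-numbered Control and CTCFL-KD libraries deviated together from their group means (r = 0.373, 0.216 and 0.261 across 12000 genes), so the replicate block is given where it changes a call. For Control and CTCFL-OE r was -0.051, 0.221 and -0.053.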

Additional observations from a re-analysis of the deposited data

How the results depend on the processing

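With low-count genes kept, 1 member was called in CTCFL-OE, 8 in CTCFL-KD and 4 in CTCFL-KD against CTCFL-OE (main counts 0, 2 and 1), beside 2.18%, 13.6% and 10.4% of all genes. With at least 10 counts in every library these were 1 in CTCFL-KD (20.1% of all genes) and 0 between CTCFL-KD and CTCFL-OE (13.4%), from 9 members tested. DESeq2 on all 9 libraries called 7 in CTCFL-KD (18.9% of genes with an adjusted p) and 2 in CTCFL-KD against CTCFL-OE (14.2%), and DESeq2 on the groups compared 6 in CTCFL-KD (18.2%). Between CTCFL-KD and CTCFL-OE, length and GC offsets gave 2 (*REC8* and *SSX1*, with *CAGE1* lost; 16.8% of all genes), edgeR on the groups compared 0 (13.6%), the replicate block 0 (16.7%) and adjusted p alone 3 (26.8%). The replicate block, paired by number, changed no other call of a member except that of *ATAD2* in CTCFL-KD (log2 fold change -1.02). Without each library in turn, members called ranged from 2 to 4 in CTCFL-KD (19.9% to 24.7% of all genes) and from 0 to 3 between CTCFL-KD and CTCFL-OE (13.9% to 18.6%). In these 9 fits *CAGE1* was called 7 times in CTCFL-KD, *SMC1B* 7 times, *MEIOB* 6 times and *ATAD2* 3 times, and between CTCFL-KD and CTCFL-OE *SMC1B* 5 times and *CAGE1* 1 time. *SMC1B* did not pass the filter in the main fit and could enter these fits only through CTCFL-KD, where its counts were high. Its calls were therefore not independent of the filter and cannot be set beside those of *CAGE1* and *MEIOB*. It was not called without CTCFL-KD replicate 1 or 2 in either comparison. Silent members were 3 when no count at all was asked for. The cause was not tested in any of these cases, except that fewer or more genes entered where the filter changed.

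Of the 4 further lists, 1 gene was called in CTCFL-OE, against 2 with upper-quartile scaling or DESeq2 on all 9 libraries, 4 without the filter, with length and GC offsets or with DESeq2 on the groups compared, 3 with the block and offsets or edgeR on the groups compared, 0 with at least 10 counts everywhere, and 0 to 9 without each library. In CTCFL-KD, 17 became 28 without the filter, 10 with at least 10 counts everywhere and 26 by adjusted p alone. Without each library the log2 fold change of *CTCFL* lay between 2.13 and 2.98 in CTCFL-OE, not a DEG without Control replicate 1, 2 or 3 (adjusted p 0.169, 0.176 and 0.125 from edgeR), and between -5.88 and -3.21 in CTCFL-KD, not a DEG without CTCFL-KD replicate 3 (adjusted p 0.0551). Over all genes the count of DEGs in CTCFL-OE (368) ranged from 44 to 1184 without each library. It was 835 with edgeR on the groups compared, 826 without the filter, 593 with offsets and 750 with DESeq2 on the groups compared.

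Signs turned only where no call stood in the main fit. One of these, *TEX19* between CTCFL-KD and CTCFL-OE, was called in the fit without CTCFL-KD replicate 1. Without each library the log2 fold change ranged from -0.61 to 0.11 (*PAGE1*), -0.21 to 0.68 (*SSX1*), -0.046 to 0.68 (*MEIOB*), -0.15 to 0.00027 (*SMC1A*) and -0.066 to 0.016 (*BRD2*) in CTCFL-OE. In CTCFL-KD it ranged from -0.15 to 0.93 (*PAGE1*), -0.62 to 0.46 (*TEX19*), -0.10 to 0.11 (*STK31*), -0.14 to 0.43 (*HORMAD1*) and -0.38 to 0.12 (*BRD3*). Between CTCFL-KD and CTCFL-OE it ranged from -1.03 to 0.038 (*TEX19*), -0.082 to 0.48 (*HORMAD1*) and -0.44 to 0.92 (*LY6K*). With length and GC offsets, alone and with the block, it was 0.13 and 0.12 (*SYCP2*), -0.20 and -0.22 (*TEX19*) and -0.0020 and -0.0028 (*BRD2*) in CTCFL-KD, 0.19 and 0.20 (*HORMAD1*) in CTCFL-OE and -0.098 and -0.038 (*LY6K*) between CTCFL-KD and CTCFL-OE. *STK31* in CTCFL-KD was -0.0013 with RLE scaling, -0.062 without the filter, -0.030 with DESeq2 on all 9 libraries and -0.048 with DESeq2 on the groups compared. *LY6K* was -0.023 between CTCFL-KD and CTCFL-OE without the filter. *BRD2* in CTCFL-OE was 0.030 with upper-quartile scaling and 0.017 with edgeR on the groups compared. Among single genes, 46 alternatives lost a call and 19 gained one, and 1595 left call and direction as they were. Depth limits the 28 members that were not tested.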
